A study of Mus musculus with 10 samples.

Results

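Transcript levels of 10 genes that build the nuclear lamina and its link to the cytoskeleton were examined in mouse macrophages. The genes were chosen by name: the lamins Lmna, Lmnb1 and Lmnb2, the inner nuclear membrane proteins Lbr and Emd, the SUN proteins Sun1 and Sun2, and the nesprins Syne1, Syne2 and Syne3. All 10 were found among the 57010 gene identifiers of the table, and all 10 were among the 12455 genes abundant enough to test, whose normalized read counts averaged 10 or more. RNA was sequenced from macrophages grown for 7 days from mouse bone marrow with 20 ng/mL of the growth factor M-CSF. The marrow came from wild-type mice (WT) or from mice without WASp (WKO), the actin regulator encoded by Was. Cells were either unconfined or held for 1 h beneath silicone (PDMS) micropillars that left them a height of 3 µm. There were 2 WT and 2 WKO unconfined libraries, with replicate numbers 1 and 3, and 3 confined libraries of each genotype, numbered 2, 3 and 6 in WT and 1, 2 and 5 in WKO. The labels do not say whether libraries came from separate mice, whether marrow was pooled or how unconfined cells were held. The p-values set group differences against the spread between these libraries, which may be technical.

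The lamina is a meshwork of intermediate filament proteins beneath the inner nuclear membrane. A-type lamins come from Lmna by alternative splicing, B-type lamins come from Lmnb1 and Lmnb2, and the balance between the types is known to set how stiff or pliable a nucleus is. SUN proteins in the inner membrane bind nesprins in the outer membrane, and together they form the LINC complex, which couples the lamina to actin, microtubules and intermediate filaments. White blood cells that squeeze through narrow spaces deform their nuclei, and in many cell types such squeezing can open the nuclear envelope.

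Promoter sequences are shown for Lmna and Syne3, the members that passed the test in at least 1 comparison. They come from RefSeq (GRCm38.p6) and are written 5′ to 3′ along the gene, ending toward the start site. For Lmna, which has 2 starts in the table, the more upstream one was used, and the printed stretch chr3:88503387-88503602 on the minus strand stops 34 bases short of the start, where the GENCODE M21 annotation places an exon. For Syne3 the stretch is chr12:104998678-104998927 on the minus strand. Both starts lie inside the genes as GENCODE M21 places them, with 5′ ends at 88509956 (Lmna) and 105009809 (Syne3). The bases before those 5′ ends are not shown. Capitals mark a GC box, read on the other strand.
Lmna: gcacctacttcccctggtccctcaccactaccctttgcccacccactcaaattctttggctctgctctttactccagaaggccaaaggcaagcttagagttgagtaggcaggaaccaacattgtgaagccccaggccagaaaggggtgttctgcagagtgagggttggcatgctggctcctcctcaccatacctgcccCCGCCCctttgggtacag
Syne3: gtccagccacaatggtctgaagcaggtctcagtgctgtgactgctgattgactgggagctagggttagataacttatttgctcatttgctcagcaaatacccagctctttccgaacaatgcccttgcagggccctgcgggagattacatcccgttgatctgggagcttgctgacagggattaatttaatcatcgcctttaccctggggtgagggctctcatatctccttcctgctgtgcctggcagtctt

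Both strands of the window from 250 bases before to 50 bases after each RefSeq start were searched for 6 motifs. The letters were TGANTCA for AP-1, GGGCGG for the GC box, CCAAT for the CCAAT box and TATAAA for the TATA box, and the CArG box (the element bound by serum response factor) and the NF-kB element were searched by their usual patterns. Over the 32851 promoter windows of the table, 7.81% held the AP-1 letters, 35.7% the GC box, 37.4% the CCAAT box, 13.6% the TATA box, 1.63% the CArG box and 4.51% the NF-kB element. The Lmna window printed here held the GC box at position -52 and, outside the printed stretch, the AP-1 letters at position 40 past the start. The window of the other Lmna start held the CCAAT box at position -131. The Syne3 window, which lies inside the annotated gene, held none of the 6 motifs. Windows were kept for 9 of the 10 members, 14 windows in all. Chromosome 18, where Lmnb1 lies, was left out. Besides Lmna only Lbr held the AP-1 letters, at position -48. None of the 14 windows held the CArG box or the NF-kB element.

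Libraries held between 13295701 and 19329908 reads, and the members between 111 reads (Syne2) and 10843 reads (Lmna) in a library. Was, the targeted gene, had normalized read counts of 1308 to 1649 in the 5 WT libraries and 96.9 to 154 in the 5 WKO libraries. Which part of Was is altered is not given in the sources used here. All 10 macrophage markers (among them Adgre1, Csf1r and Cd68) had reads in every library. Their sums were 203788 to 228352 in WT and 264180 to 338870 in WKO libraries. By limma 4 of the 10 passed as higher in WKO over both conditions, and none as lower, against 2.9% and 2.67% of all genes. WKO confined replicate 5 stood apart, with the highest sum of 12 stromal markers (collagen and other mesenchymal genes), 13210 against 1737 to 6375 in the other libraries. Of 10 neutrophil and progenitor markers all had reads in every library. Of these, 6 passed by limma as higher in WKO over both conditions, against 2.9% of all genes. Of 7 B lineage markers 4 were abundant enough to test, and their levels are given beside Lmna. None of 12 proliferation genes passed the limma threshold in a comparison, at most 1 had an unadjusted p under 0.05 in any, edgeR called none and DESeq2 called 1 in the averaged genotype comparison.

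Lmna was the member that moved with confinement, and Syne3, the nesprin that binds plectin, was the other one that passed a test. Members were compared by limma on log2(normalized read count + 1), with Benjamini-Hochberg adjustment over all 12455 genes. In the averaged confinement comparison, which takes the mean of the WT and the WKO difference, 2 of the 10 members passed adjusted p 0.05, both higher in confined cells, where 6.21% of all tested genes passed and 4.13% passed as higher. In WKO alone 1 member passed, Lmna, against 1.72% of all genes. In WT alone no member passed by limma or by edgeR, against 1.16% of all genes, but 2 were higher at an unadjusted p under 0.05, as were 6.69% of all genes, and DESeq2 called both, Lmna and Syne3.

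No member passed by limma, edgeR or DESeq2 between the genotypes, where 0.145% of all genes passed in unconfined cells, 2.59% in confined cells and 5.57% in the averaged comparison. At an unadjusted p under 0.05 there was 1 member in unconfined cells (Lmna), 3 in confined cells (Lmnb2, Sun1 and Syne3) and 1 in the averaged comparison (Lmnb2), all lower in WKO, as were 4.96%, 7.64% and 9.46% of all genes. WKO and WT libraries did not overlap for 5 members in unconfined cells, 3 higher and 2 lower in WKO (22.2% and 22.7% of all genes), and for 2 in confined cells, none higher and both lower (10.7% and 10.4%). With confinement, groups did not overlap for 4 members in WT and 2 in WKO, all higher, as for 18.3% and 14.5% of all genes. The interaction, which is the confinement difference in WKO minus that in WT, passed for no member and for 0% of all genes with limma, and no member had an unadjusted p under 0.05, whereas 2.07% of all genes did. edgeR and DESeq2 also called no member there. The median log2 fold change of the 10 members was 0.14 in the averaged confinement comparison, where the median of all genes was -0.02, and -0.03 in the averaged genotype comparison, where it was 0.00. The confinement median was 0.079 without WKO confined replicate 2 and 0.057 with upper-quartile scaling, and the genotype median changed sign without WKO confined replicate 5 (0.024). The confinement and genotype comparisons share libraries, so they are not independent of each other.

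**Figure D1:**
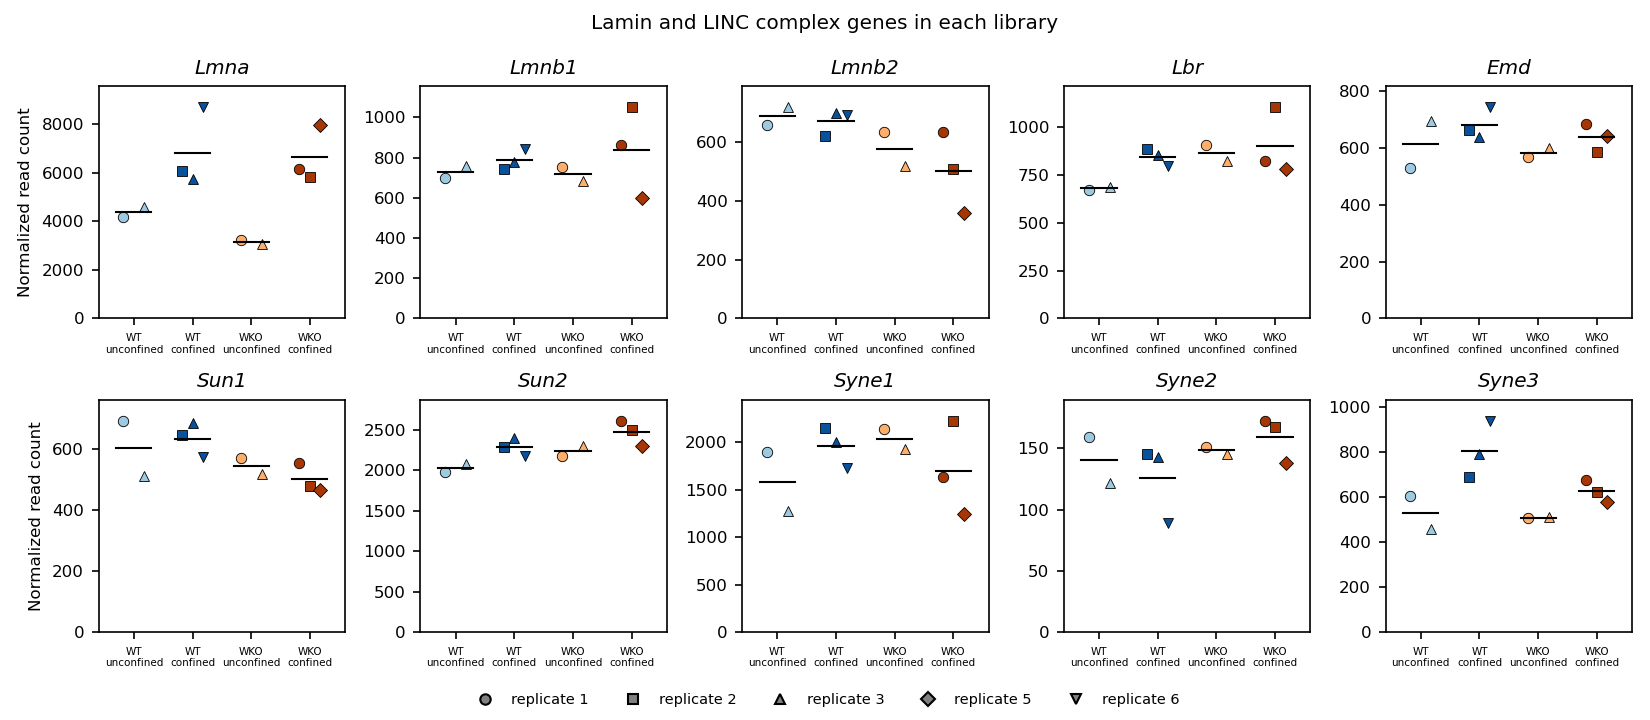
Normalized read count (y axis, from 0) of each of the 10 genes in each of the 10 libraries, by genotype and condition; each point is a library, its shape the replicate number, and the line the group mean. The 6 confined libraries lie between 5737 and 8711 for Lmna and the 4 unconfined ones between 3064 and 4585, whereas for the other 9 genes confined and unconfined libraries overlap.

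**Figure D2:**
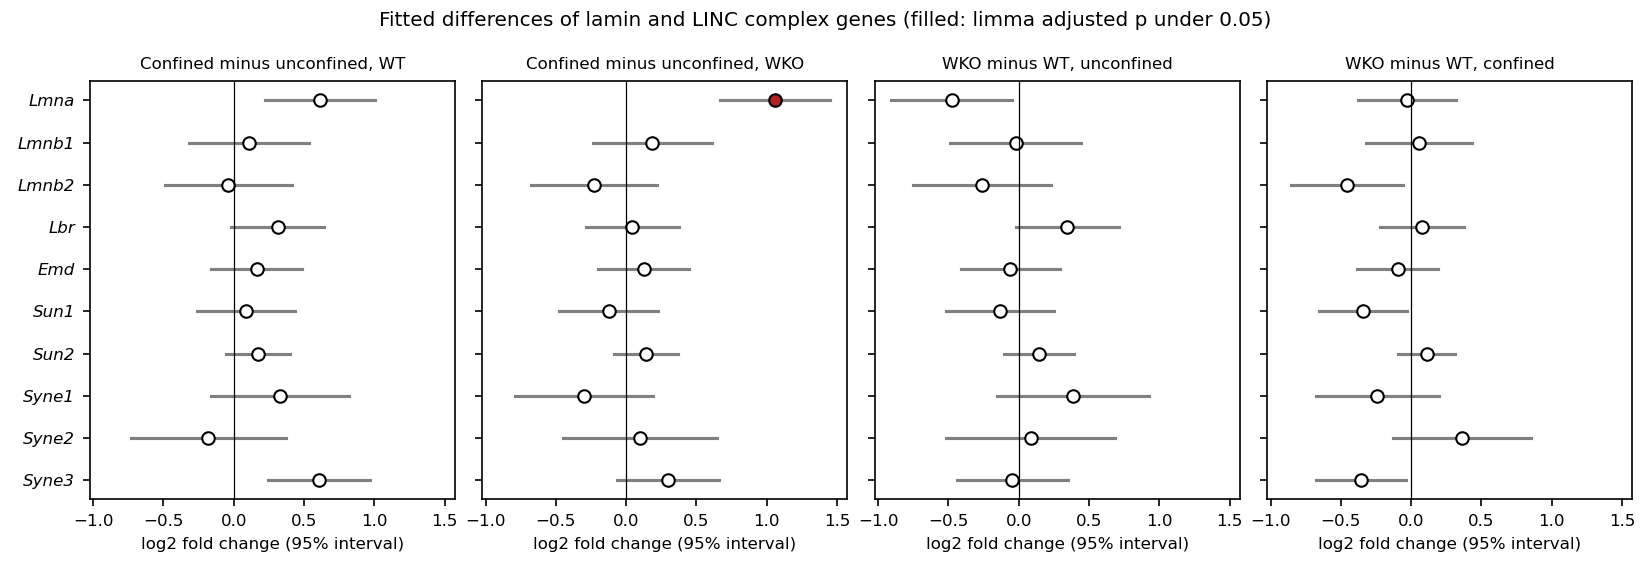
Log2 fold change with its 95% interval (x axis) of each gene (y axis) in the 4 comparisons of 2 groups; filled points pass limma adjusted p 0.05. The filled point is Lmna in WKO cells, at 1.06.

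Lmna (ENSMUSG00000028063, chr3:88480147-88509956, minus strand) encodes lamins A and C, which counts per gene cannot separate. In WT it had normalized read counts of 4198 and 4585 in unconfined libraries and 6062, 5737 and 8711 in confined libraries. In WKO it had 3251 and 3064 in unconfined libraries and 6149, 5816 and 7985 in confined libraries. The groups did not overlap in either genotype, and the lowest confined library was above the highest unconfined library of either genotype, an order found for 4.46% of all genes. Confined means were 1.56-fold the unconfined mean in WT (6837 ± 1631, SD, n = 3, against 4392 ± 274, SD, n = 2) and 2.11-fold in WKO (6649.6 ± 1168, SD, n = 3, against 3157 ± 132, SD, n = 2).

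Averaged over the genotypes, Lmna rose with confinement by a log2 fold change of 0.84 (SE 0.13, limma adjusted p 0.0028). In WKO it rose by 1.06 (SE 0.18, 95% interval 0.67 to 1.45, limma adjusted p 0.0123). In WT the log2 fold change was 0.61 (SE 0.18, 95% interval 0.22 to 1.01), with an unadjusted p of 0.0052 and an adjusted p of 0.163 in limma, so that it did not pass over all genes. The difference between the genotypes in this response did not pass either (0.45, SE 0.25, 95% interval -0.11 to 1.00, limma unadjusted p 0.105, adjusted p 0.999). The averaged rise passed under all 21 alternatives tried, with log2 fold changes between 0.67 and 0.89. The WKO rise did not pass without WKO unconfined replicate 1 (adjusted p 0.115) or replicate 3 (0.145), without the mean-variance trend (0.0987) or in a fit of its 2 groups alone (0.0658), and the WT difference passed without WKO confined replicate 5 (0.0433), all in limma.

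Between the genotypes, unconfined WKO libraries held 71.9% of the WT mean of Lmna, and the 2 WKO values lay below the 2 WT values. Groups of 2 failed to overlap in this way, with WKO lower, for 22.7% of all genes. The log2 fold change was -0.48 (SE 0.20, limma unadjusted p 0.033, adjusted p 0.467) and did not pass. In confined libraries WKO held 97.3% of the WT mean, the values overlapped, and the log2 fold change was -0.03 (95% interval -0.38 to 0.32, limma adjusted p 0.959). The same 2 WKO unconfined libraries enter both the WKO confinement comparison and the unconfined genotype comparison.

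Markers of other cell types moved in the same libraries. The sum of the 10 neutrophil and progenitor markers, among them S100a8, Mpo and Ltf, was 25028 to 30172 in WKO unconfined libraries, where Lmna was lowest, and 6987 to 10876 in WT unconfined libraries. In confined libraries it was 2568 to 7962 in WT and 7015 to 28214 in WKO. WT confined replicate 6 and WKO confined replicate 5, with the highest Lmna of their groups, had the lowest neutrophil sums of their groups. Averaged over the genotypes 1 of these 10 markers passed in limma as lower in confined cells, against 2.07% of all genes. At an unadjusted p under 0.05 there were 7 lower, against 9.7% of all genes. The part of these and the following markers in the Lmna values was not tested, and in bulk RNA fewer cells of a type and less RNA per cell cannot be told apart. For stromal markers, of which 8 of 12 had reads in every library and Pdgfrb, Pdgfra, Thy1 and Thbs2 were at 0 in at least 1, the sum was 1737 to 2614 in WT confined libraries, 3056 to 3942 in WT unconfined, 3427 to 13210 in WKO confined and 5173 to 5203 in WKO unconfined libraries. This sum was lowest in WT confined replicate 6, where Lmna was highest, but the collagen genes of the list went the other way. In WT confined replicates 2, 3 and 6, Col1a1 had 45.0, 41.1 and 202 normalized reads, and Col1a2 had 72.8, 83.3 and 312. Col3a1 had 17.1, 22.3 and 36.2. The low sum in replicate 6 therefore came from other genes of the list. The highest stromal sum, 13210, was in WKO confined replicate 5, where Lmna was the highest of its group (7985). For B lineage markers, of which 2 of 7 had reads in every library and others, among them Cd79a, Ms4a1, Pax5 and Vpreb1, were at 0 in at least 1, the sum was 810.3 to 875 in WT unconfined, 411 to 793 in WT confined, 4047 to 4417 in WKO unconfined and 1572 to 5200.1 in WKO confined libraries. Its lowest values among confined libraries of each genotype were again in WT replicate 6 and WKO replicate 5. Of the 4 tested B lineage markers, limma called Ighm higher in WKO over both conditions and Cd79b lower with confinement over both genotypes. Of all genes, 2.9% and 2.07% were called so. For WKO minus WT over both conditions, 3 of the 4 had a log2 fold change above 0 and 1 below (median 0.56, range -0.28 to 2.49). In confined cells 2 were above 0 and 2 below, so the B lineage sums do not stand for each marker. Without WT confined replicate 6 the averaged Lmna log2 fold change was 0.74 (limma adjusted p 0.0030), and without WKO confined replicate 5 it was 0.77 (limma adjusted p 0.00087).

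The genes whose profile over the 10 libraries was closest to that of Lmna, by the root-mean-square difference of centred log2 values among 10217 genes, were Rhob (0.15), Fbxo33 (0.17) and Spry2 (0.17). Rhob encodes a small GTPase, Fbxo33 an F-box protein and Spry2 a Sprouty protein that restrains receptor tyrosine kinase signalling. Rhob had mean normalized read counts of 3868 in WT unconfined, 4918 in WT confined, 2294 in WKO unconfined and 4881 in WKO confined libraries. Its order of groups was that of Lmna, highest in WT confined and lowest in WKO unconfined libraries. These likenesses describe 10 libraries and carry no test.

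The B-type lamins did not pass in any comparison of the main test. Lmnb1 (ENSMUSG00000024590) encodes lamin B1. It had normalized read counts of 700.1 and 759 in WT unconfined, 741, 777 and 843 in WT confined, 755 and 683 in WKO unconfined, and 865, 1051 and 600.3 in WKO confined libraries. The WKO confined libraries spanned the whole range of the gene, and the other 7 lay between 683 and 843. The averaged log2 fold change with confinement was 0.15 (SE 0.14, 95% interval -0.15 to 0.45, limma adjusted p 0.578). With confinement in WKO, Lmnb1 passed as higher under 1 of 22 alternatives (limma adjusted p 0.0365).

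Lmnb2 (ENSMUSG00000062075, chr10:80901203-80918245, minus strand) encodes lamin B2. It had 656 and 718 normalized reads in WT unconfined, 620.3, 698 and 691 in WT confined, 632 and 517 in WKO unconfined, and 634, 508 and 358 in WKO confined libraries. WKO confined replicate 1 lay within the WT range, and replicates 2 and 5 lay below it. Averaged over the conditions the WKO minus WT log2 fold change was -0.36 (SE 0.15, 95% interval -0.68 to -0.04, limma unadjusted p 0.029, adjusted p 0.185). Without WKO confined replicate 1 it was -0.45 and passed (limma adjusted p 0.0400), and in confined cells alone it went from -0.46 (limma adjusted p 0.233) to -0.65 (0.0452).

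The ratio of Lmna to the summed B-type lamins was formed on reads per kilobase of the longest coding transcript. It was 3.08 and 3.09 in WT unconfined libraries and 4.40, 3.86 and 5.61 in WT confined libraries. In WKO it was 2.32 and 2.51 in unconfined libraries and 4.03, 3.59 and 8.09 in confined libraries. All 6 confined libraries were above all 4 unconfined ones, as for Lmna itself, and the highest ratio, in WKO confined replicate 5, was that of a library with both high Lmna and the lowest Lmnb1 and Lmnb2. The ratio is a description and was not tested, since Lmna enters it.

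**Figure D3:**
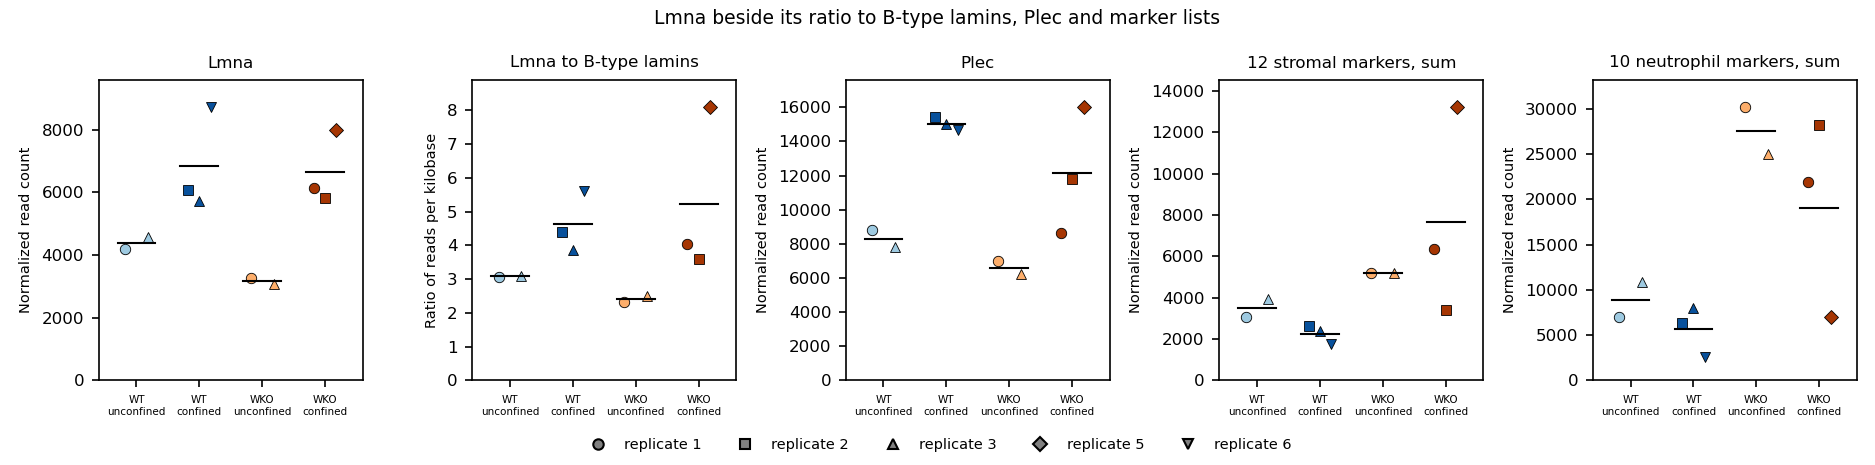
Lmna, its ratio to the B-type lamins, the plectin gene Plec and the summed stromal and neutrophil markers (y axes, from 0) in each library (points, shaped by replicate number) with group means (lines). The ratio reaches 3.09 at most in unconfined libraries and is 3.59 or more in confined ones, and the neutrophil sum is highest in a WKO unconfined library, at 30172.

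Lbr and Emd, which anchor chromatin and the lamina at the inner membrane, did not pass in any comparison of the main test. Lbr (ENSMUSG00000004880, chr1:181815335-181843046, minus strand) encodes the lamin B receptor, which binds heterochromatin and also acts in sterol synthesis. It had normalized read counts of 674 and 688 in WT unconfined, 889, 855 and 797 in WT confined, 909.6 and 826 in WKO unconfined, and 825, 1106 and 781 in WKO confined libraries. The 2 WT unconfined libraries were below the other 8. For WKO minus WT in unconfined cells it had a log2 fold change of 0.35 (SE 0.17, limma adjusted p 0.555), and for confinement in WT one of 0.31 (SE 0.15, limma adjusted p 0.448), and these comparisons share the 2 low libraries. Exons of Lbr overlap those of Dnah14 on the other strand over 440 bases, and whether strand was used in counting is not given in the sources used here, which leaves the counts of Lbr uncertain.

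Emd (ENSMUSG00000001964, chrX:74254687-74261548, plus strand) encodes emerin, a LEM domain protein that binds lamins and the chromatin protein BAF. It had 531 and 697 normalized reads in WT unconfined, 664, 638 and 744 in WT confined, 568 and 599.8 in WKO unconfined, and 686, 586 and 641 in WKO confined libraries. All groups overlapped. The averaged log2 fold change was 0.14 with confinement (95% interval -0.09 to 0.37) and -0.08 for WKO minus WT (95% interval -0.31 to 0.15). Its exons overlap a pseudogene, Gm14686, over 343 bases of the same strand.

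The SUN proteins span the inner membrane and hold the nesprins. Sun1 (ENSMUSG00000036817, chr5:139200637-139249840, plus strand) had normalized read counts of 694 and 512 in WT unconfined, 646, 687 and 574 in WT confined, 571 and 519 in WKO unconfined, and 555, 480.1 and 467 in WKO confined libraries. In confined cells the 3 WKO libraries were below the 3 WT libraries, an arrangement found for 10.4% of all genes. The log2 fold change there was -0.34 (SE 0.14, 95% interval -0.66 to -0.03, limma unadjusted p 0.035, adjusted p 0.252). It did not pass, and the averaged confinement difference was -0.02 (95% interval -0.27 to 0.23).

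Sun2 (ENSMUSG00000042524, chr15:79724070-79742536, minus strand) had 1984 and 2079 normalized reads in WT unconfined, 2290.4, 2398 and 2182 in WT confined, 2180.3 and 2306 in WKO unconfined, and 2614, 2501 and 2302 in WKO confined libraries. The WT unconfined libraries were the lowest 2 of the 10. The averaged log2 fold changes were 0.16 with confinement (SE 0.07, 95% interval -0.01 to 0.32, limma adjusted p 0.249) and 0.13 for WKO minus WT (SE 0.07, 95% interval -0.03 to 0.29, limma adjusted p 0.370). Exons of Sun1 and Sun2 overlap antisense genes over 302 and 147 bases.

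The nesprins reach from the outer membrane into the cytoplasm. Syne3 (ENSMUSG00000054150, chr12:104929933-105009809, minus strand) encodes nesprin-3, which binds the cytolinker plectin and through it intermediate filaments. It had normalized read counts of 604 and 456 in WT unconfined, 689.9, 789.5 and 939 in WT confined, 504 and 512 in WKO unconfined, and 674, 623 and 579 in WKO confined libraries. Within each genotype the confined libraries were above the unconfined ones, but WKO confined replicate 5 was below WT unconfined replicate 1.

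Averaged over the genotypes, Syne3 rose with confinement by a log2 fold change of 0.45 (SE 0.12, limma adjusted p 0.0425). The log2 fold change was 0.61 in WT (SE 0.17, limma unadjusted p 0.0033, adjusted p 0.130) and 0.30 in WKO (SE 0.17, limma adjusted p 0.447), and their difference did not pass (-0.31, SE 0.23, limma adjusted p 0.999). In confined cells the 3 WKO libraries were below the 3 WT libraries (-0.36, SE 0.15, limma unadjusted p 0.033, adjusted p 0.247). The averaged rise lay close to the threshold and passed under 11 of 21 alternatives. Its limma adjusted p was 0.173 without WT unconfined replicate 3, 0.143 and 0.138 without WKO unconfined replicates 1 and 3, 0.0908 and 0.100 without WT confined replicates 3 and 6, and 0.0777 without WKO confined replicate 2. The neutrophil and stromal sums given beside Lmna moved with these libraries too, and their part in Syne3 was not tested.

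The profiles closest to that of Syne3 over the 10 libraries were those of Mcm9 (root-mean-square difference 0.10), Hmox1 (0.11) and Mast2 (0.12). Mcm9 encodes a helicase of the MCM family, Hmox1 the heme-degrading enzyme heme oxygenase 1 and Mast2 a microtubule-associated kinase. Hmox1 had mean normalized read counts of 9513 in WT unconfined, 13425 in WT confined, 9623 in WKO unconfined and 10851.5 in WKO confined libraries. Like Syne3, it had its highest group mean in WT confined libraries.

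Syne1 (ENSMUSG00000096054, chr10:5020917-5551482, minus strand) and Syne2 (ENSMUSG00000063450, chr12:75818134-76110926, plus strand) encode nesprin-1 and nesprin-2, whose giant forms bind actin. Syne1 had normalized read counts of 1899 and 1273 in WT unconfined, 2146, 2004 and 1730.4 in WT confined, 2141 and 1928 in WKO unconfined, and 1631, 2229 and 1240.1 in WKO confined libraries. Its highest and its lowest library were both WKO confined. With confinement its log2 fold change was 0.33 in WT (95% interval -0.16 to 0.82) and -0.30 in WKO (95% interval -0.79 to 0.19), and their difference, -0.63 (SE 0.32, limma unadjusted p 0.0725, adjusted p 0.999), did not pass. Single libraries moved these values: the WT one was 0.62 without WT unconfined replicate 1 and 0.040 without replicate 3, and the WKO one was -0.51 without WKO confined replicate 2 and -0.092 without replicate 5.

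Syne2 had 159.6 and 122 normalized reads in WT unconfined, 146, 143 and 89.2 in WT confined, 151 and 146 in WKO unconfined, and 173, 167 and 138 in WKO confined libraries. The lowest library was WT confined replicate 6, in which Lmna and Syne3 were highest. The averaged log2 fold change was -0.04 with confinement (95% interval -0.43 to 0.35) and 0.23 for WKO minus WT (95% interval -0.16 to 0.61), the widest intervals among the members for these averaged comparisons.

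Levels were compared between genes as normalized reads per kilobase of the longest coding transcript in GENCODE M21. In WT unconfined libraries the mean level per kilobase fell in the order Lmna (1392), Sun2 (534), Emd (385), Lmnb1 (257), Lmnb2 (195), Lbr (194), Sun1 (146), Syne3 (101), Syne1 (56.8) and Syne2 (6.48). Lmna led, Sun2 followed and Syne2 came last in all 4 groups, and Lmna had mean levels per kilobase of 2166 in WT confined, 2107 in WKO confined and 1000.4 in WKO unconfined libraries. Syne1 and Syne2, with 5 and 10 coding transcripts, were divided by lengths of 27908 and 21704 bases. Their levels would be higher if shorter transcripts were the ones expressed, which counts per gene cannot show. Neighbours in the order whose libraries overlapped in level per kilobase were Lmnb2 and Lbr in WT unconfined, Lmnb1 and Lbr in WKO unconfined, and Sun1 and Syne3 in WT confined libraries. In WKO confined libraries these were Emd and Lmnb1, Lmnb1 and Lbr, Lmnb2 and Sun1, and Sun1 and Syne3. With the summed exons of each gene as the length, a choice added after the data were seen, the mean level of Syne3 was above that of Sun1 in all 4 groups and that of Lmnb1 above Emd in all groups but WT confined.

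**Figure D4:**
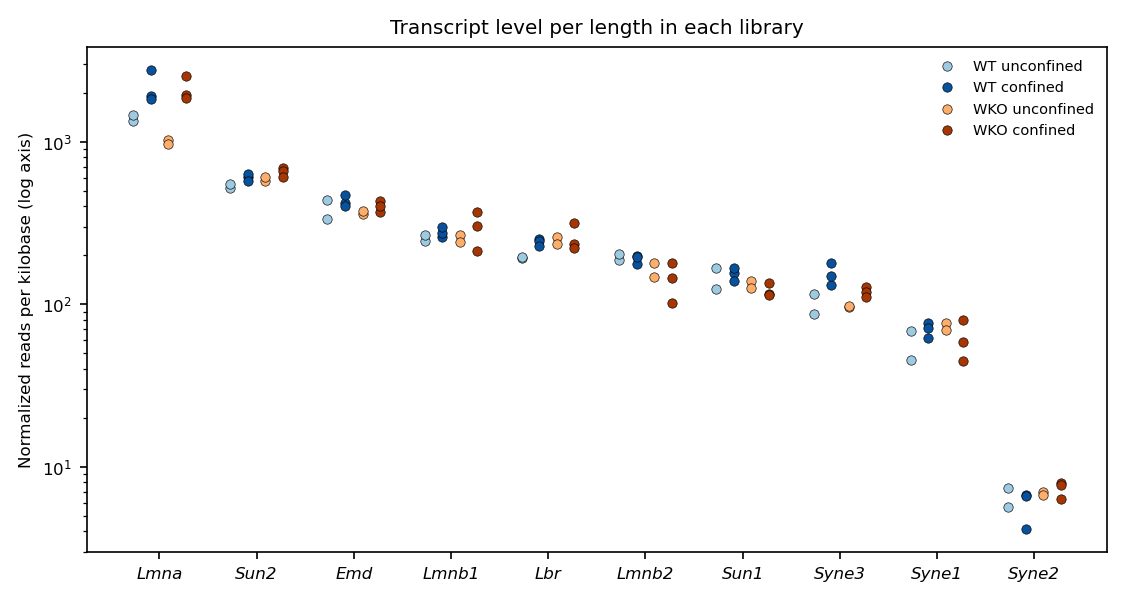
Normalized reads per kilobase of the longest coding transcript (y axis, log scale) for each gene (x axis) in each library (points, coloured by group). Lmna is the highest in every group, with means from 1000.4 to 2166, and Syne2 the lowest, with a mean of 6.48 in WT unconfined libraries.

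The ratio of Sun2 to Sun1 in level per kilobase was 3.11 and 4.41 in WT unconfined, 3.85, 3.79 and 4.13 in WT confined, 4.15 and 4.83 in WKO unconfined, and 5.11, 5.66 and 5.35 in WKO confined libraries. The WKO confined libraries had the 3 highest ratios. The ratio of Syne3 to Syne1 was 1.69 and 1.90 in WT unconfined, 1.70, 2.09 and 2.88 in WT confined, 1.25 and 1.41 in WKO unconfined, and 2.19, 1.48 and 2.47 in WKO confined libraries. In WKO the confined libraries were above the unconfined ones and in WT they overlapped. These ratios are descriptions with no test, and the size of the ratio to Syne1 rests on the transcript length taken for Syne1.

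Further genes of the nuclear envelope were taken from a list of 37, all found in the table, of which 32 were abundant enough to test. Lemd1, Sun3 and Sun5 had no read in any library, and Syne4 (mean normalized read count 7.15) and Spag4 (5.90) were below the minimum. In the averaged confinement comparison 2 of the 32 passed by limma, both higher, and in the averaged genotype comparison 1 was higher and 2 were lower in WKO, against 6.21% and 5.57% of all genes. The median log2 fold change of the 32 was 0.01 with confinement and -0.08 for WKO minus WT. By pairs of groups, 1 gene (Dst) passed between the genotypes in unconfined cells, where 0.145% of all genes did, and again in confined cells, where 2.59% did. None passed with confinement in WT or in WKO by limma or edgeR. At an unadjusted p under 0.05 there were 4 of the 32 genes in WT and 4 in WKO, close to the shares of all genes (12.2% and 14.1%), and DESeq2 called 2 and 1 list genes where it called 333 and 486 of all genes. The interaction passed for none by limma, edgeR or DESeq2, and 1 gene, Fhod1, had an unadjusted p under 0.05.

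By role, none of 7 tested lamin partners and LEM proteins passed in any comparison by limma, edgeR or DESeq2, and none had an unadjusted p under 0.05. These include Tmpo, which encodes the LAP2 proteins, and Banf1, which encodes BAF. None of the 5 enzymes that process prelamin A and other farnesylated proteins (Zmpste24, Icmt, Fnta, Fntb and Rce1) passed by any of these tools, and 1 of them, Fnta, named here after its values were seen, had an unadjusted p under 0.05, with log2 fold changes of -0.40 with confinement in WKO and -0.32 in the averaged confinement comparison. None of 5 tested other LINC and inner membrane genes passed by any of these tools, and 1, Nemp1, also named after its values were seen, had an unadjusted p under 0.05, with a log2 fold change of 0.25 for WKO minus WT over both conditions.

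Torsins are ATPases of the endoplasmic reticulum and nuclear envelope lumen. Of the 6 torsins and cofactors, DESeq2 called 1 in the averaged confinement comparison, where limma and edgeR called none. Tor3a was lower in WKO. It had normalized read counts of 1057 and 1043 in WT unconfined, 976, 1085 and 1147 in WT confined, 833 and 866 in WKO unconfined, and 880.3, 822 and 794 in WKO confined libraries. The highest of the 5 WKO values was below the lowest of the 5 WT values, as for 3.33% of all genes. It fell by 0.33 on the log2 scale over both conditions (SE 0.08, limma adjusted p 0.0393) and passed under 9 of 21 alternatives, with adjusted p up to 0.162. Leaving out 1 library ended the call for 8 of the 10 libraries, all but WKO confined replicates 1 and 5, with limma adjusted p from 0.0504 (without WT confined replicate 2) to 0.142 (without WKO unconfined replicate 1).

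The 9 cytoskeletal partners held the other 4 list genes that passed. Plec, which encodes the cytolinker plectin, had normalized read counts of 8806 and 7796 in WT unconfined, 15409.5, 15003 and 14643 in WT confined, 6989.9 and 6222 in WKO unconfined, and 8639, 11781 and 15996 in WKO confined libraries. The confined WT libraries were close together and the confined WKO libraries were spread, the lowest of them below WT unconfined replicate 1. Exons of Plec overlap those of Parp10 over 205 bases of the same strand. Plec rose with confinement over both genotypes by a log2 fold change of 0.85 (SE 0.14, limma adjusted p 0.0041) and passed under all 21 alternatives. Dync1h1, which encodes the heavy chain of cytoplasmic dynein, rose by 0.35 (SE 0.10, limma adjusted p 0.0492), from 5926 to 7418 normalized reads in unconfined libraries to 6522 to 10024 in confined ones, and its exons overlap antisense or unclassified genes over 451 bases. Dync1h1 passed under 9 of 21 alternatives, not by edgeR (adjusted p 0.0538), and not without any one of WT unconfined replicate 3, either WKO unconfined library, any WT confined library or WKO confined replicate 2 (limma adjusted p 0.0806 to 0.192).

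Dst, which encodes dystonin, a linker of actin, microtubules and intermediate filaments, was higher in WKO. It had 237 and 159 normalized reads in WT unconfined, 311, 259 and 282 in WT confined, 459.7 and 491 in WKO unconfined, and 465, 473 and 557 in WKO confined libraries. All 5 WKO libraries were above all 5 WT libraries, as for 3.38% of all genes. Over both conditions the log2 fold change was 1.05 (SE 0.13, limma adjusted p 0.0014), and it passed under all 21 alternatives. The calls in unconfined cells alone (1.29, limma adjusted p 0.0410) and in confined cells alone (0.81, limma adjusted p 0.0272) each passed under 13 of 22 alternatives, and under the others their limma adjusted p reached 0.452 and 0.250. Both were lost without either WKO unconfined library, any WT confined library or WKO confined replicate 2, and the unconfined call also without WT unconfined replicate 3. Exons of Dst overlap those of other genes over 1493 bases, which leaves its counts uncertain. Bicd2, a dynein adaptor, fell by 0.31 on the log2 scale in WKO (SE 0.08, limma adjusted p 0.0441), with 1109 to 1360.0 normalized reads in WKO libraries and 1463 to 1745 in WT libraries. It passed under 10 of 21 alternatives, and leaving out any library but WKO confined replicates 1 and 5 ended the call, with limma adjusted p from 0.0699 to 0.197.

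Markers of other cell types differed between the genotypes in the same libraries as Dst, Tor3a and Bicd2. Over both conditions all 11 tested stromal markers had a log2 fold change above 0 for WKO minus WT (median 2.16, 3 called higher by limma), as did all 10 neutrophil and progenitor markers (median 1.72, 6 called higher). Of all genes, 2.9% were called higher there. Dst was highest in WKO confined replicate 5, the library with the highest stromal sum, and without that library all of Dst, Tor3a and Bicd2 still passed over both conditions. The part of these markers in the 3 genes was not tested.

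**Figure D5:**
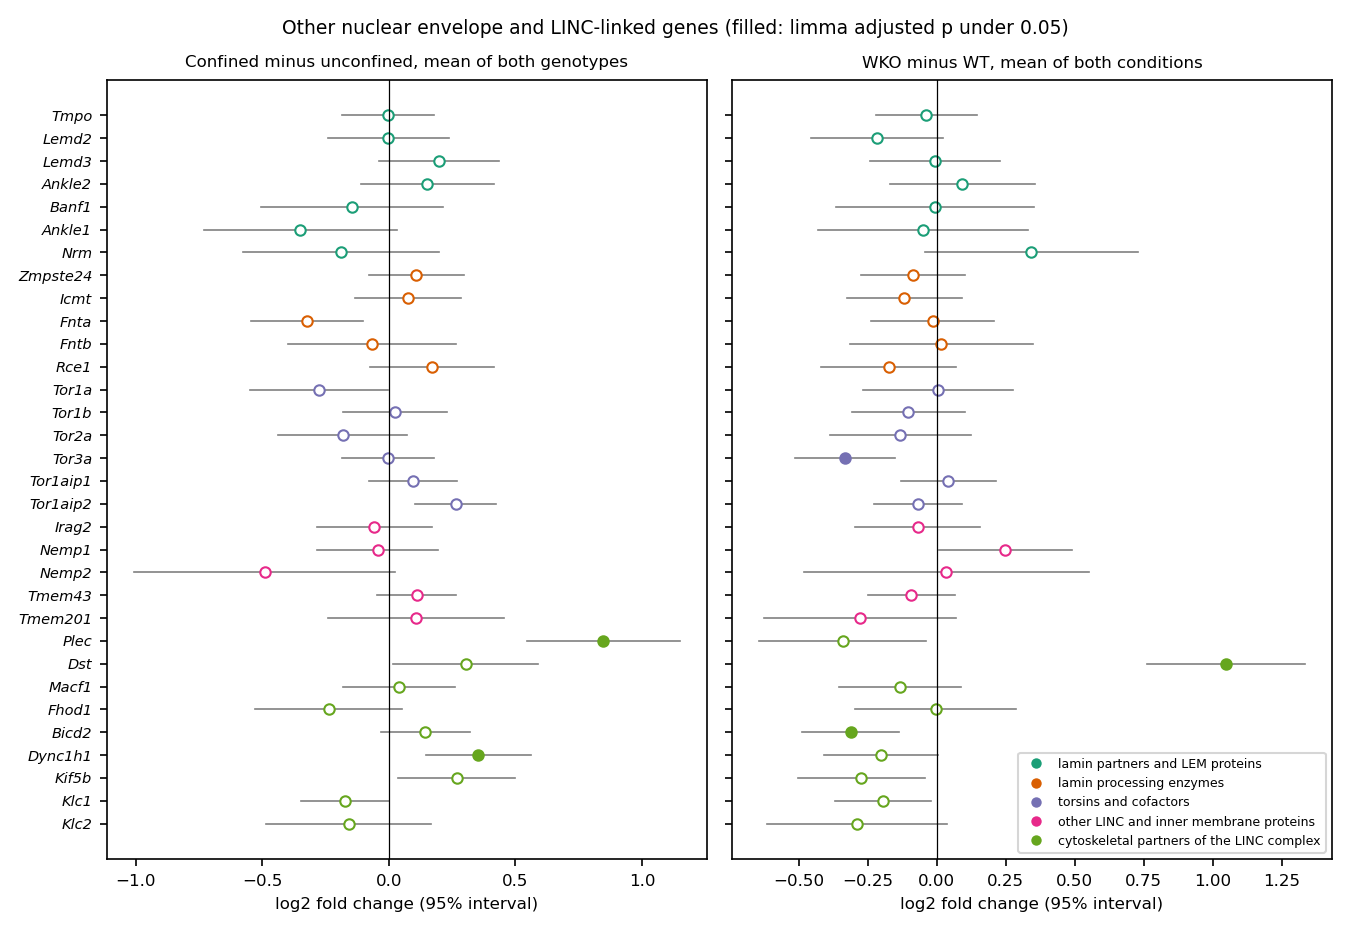
Log2 fold change with its 95% interval (x axis) of the 32 tested list genes (y axis, coloured by role), for confinement averaged over the genotypes (left) and for WKO minus WT averaged over the conditions (right); filled points pass limma adjusted p 0.05. Plec at 0.85 and Dync1h1 at 0.35 are filled on the left, and Dst at 1.05, Bicd2 and Tor3a on the right.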

How the data were processed

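RNA was sequenced from 10 libraries, prepared from 5 ng of total RNA, in 4 groups given by the sample labels. The values deposited by the authors are a signal per gene: read counts divided by 1 size factor per library. FastQC, Trim Galore, STAR and the builds GRCm38 and mm10 are named per the submitters' processing notes, and the counting tool, annotation and use of strand are not given in the sources used here. The low values were whole multiples of 1 step per library, so whole reads were recovered for 100% of values (tolerance 1e-06).

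The main test was limma 3.58.1 (R 4.3.3) with a mean-variance trend on log2(value + 1), in 1 fit of all 10 libraries with 6 residual degrees of freedom, over the 12455 genes with a mean of at least 10, with Benjamini-Hochberg adjustment and a threshold of 0.05. Fold changes on this scale understate those of low genes. On the recovered counts, edgeR 4.0.16 (quasi-likelihood) called 15 genes between genotypes in unconfined and 319 in confined cells, 116 and 186 with confinement in WT and WKO, 696 and 784 in the averaged genotype and confinement comparisons and 0 for the interaction, where limma called 18, 322, 144, 214, 694, 773 and 0. At an unadjusted p under 0.05 the interaction held 258 genes in limma. DESeq2 1.42.0, other pseudocounts, filters, scalings and variance models, a replicate block and leaving out each library were alternatives. The fit was also run on simulated counts without differences in cell makeup between libraries, so that run cannot bear on them.

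All 10 members were named. List genes were named where they passed in at least 1 comparison (at most 6 in each), and for each called member the 3 genes with the most similar profile among those with a mean of at least 50. Members and lists were chosen with earlier results of these data known. Depth was 13295701 to 19329908 reads, so that a count of 3 reads, the limit for a gene with none, equals 2.35 to 3.59 normalized reads, which covers counting error only. Gene positions and lengths are from GENCODE M21 (GRCm38), and blastn 2.17.0 was used to look for stretches of at least 100 bases with 95% identity shared between genes. Deviations of same-numbered libraries showed little correlation, which cannot exclude a shared mouse or batch, and the replicate number was not used in the main test.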

Additional observations from a re-analysis of the deposited data

Results flagged for a closer look

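List genes were scanned for groups that moved in opposite directions without overlap, which picked Fhod1 and Lyz2. The share of all genes with both moves was not counted. In unconfined cells 22.7% of all genes were lower in every WKO than in every WT library, and in confined cells 10.7% were higher. Fhod1, a formin that binds nesprin-2, was lower in every WKO than in every WT library in unconfined cells and higher in confined cells. It had normalized read counts of 682 and 1018 in WT unconfined, 535, 474 and 582 in WT confined, 649 and 596 in WKO unconfined, and 827, 600.1 and 707 in WKO confined libraries. For WKO minus WT its log2 fold change was -0.42 without confinement (limma adjusted p 0.570) and 0.42 with it (limma adjusted p 0.238), and their difference was 0.84 (SE 0.27, limma unadjusted p 0.0087, adjusted p 0.999), which did not pass.

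With confinement 17.7% of all genes were lower without overlap in WT and 14.5% were higher without overlap in WKO. Lyz2, which encodes lysozyme and was on the macrophage marker list, was lower in every confined than in every unconfined WT library and higher in WKO. It had 132963 and 128000 normalized reads in WT unconfined, 125934, 122943 and 100507 in WT confined, 157886 and 161395 in WKO unconfined, and 174783, 164000 and 200203 in WKO confined libraries. The log2 fold change with confinement was -0.17 in WT and 0.17 in WKO, and their difference was 0.34 (SE 0.20, limma unadjusted p 0.122, adjusted p 0.999), which did not pass.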

How the results depend on the processing

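The rise of Lmna with confinement over both genotypes passed under all 21 alternatives, including edgeR and DESeq2. For the 39 member values at or above their standard error, 813 of 841 alternative values kept their direction and their side of the threshold, 14 lost the call, 10 gained it and 4 changed sign. The sign changes were Syne1 for WKO minus WT in confined cells (0.084 with array weights) and with confinement in WKO (0.042 with array weights), Emd with confinement in WT (-0.034 without WT unconfined replicate 1, and up to 0.36 without replicate 3) and Lmnb2 with confinement in WKO (0.088 with the replicate block). Of the 31 values under their standard error, 27 changed sign in some alternative. Among these 31, Lmnb1 with confinement in WKO passed under 1 alternative (limma adjusted p 0.0365). Array weights, which gave WKO confined replicate 2 a weight of 3.74 and replicates 1 and 5 weights of 0.28 and 0.32, called 2 members between genotypes in confined cells, 2 with confinement in WKO, 2 in the averaged genotype comparison and 3 in the averaged confinement comparison, where Lbr was gained (limma adjusted p 0.0331). DESeq2 called 2 with confinement in WT. With confinement in WKO, 0 were called with no mean-variance trend and 0 in a fit of only the groups compared, which has fewer libraries. In the averaged confinement comparison 1 was called with all genes that had a read, 1 with upper-quartile scaling, 1 with no trend and 1 with the replicate block. Leaving out 1 library gave 0 to 1 members in the confined and averaged genotype comparisons and in confinement within WT and within WKO, and 1 to 2 in the averaged confinement comparison. Correlations of same-numbered deviations lay between -0.11 and 0.08. Those of differently numbered libraries in different groups reached -0.20 for WT confined replicate 6 with WKO confined replicate 2. They reached 0.24 for WT confined replicate 6 with WKO confined replicate 5, the libraries with the highest Lmna of their groups. In the unconfined groups of 2 libraries the deviations mirror each other. The check therefore cannot show whether same-numbered libraries shared a mouse or a batch. With the replicate block, which leaves 2 residual degrees of freedom, the averaged log2 fold change of Lmna was 0.67 (limma adjusted p 0.0023), and Syne3 did not pass (adjusted p 0.116). The median of the members ranged from 0.057 to 0.18 with confinement and from -0.061 to 0.031 between genotypes in the averaged comparisons. Counts of all genes called ranged from 4 to 245 (unconfined) and 53 to 1948 (confined) between genotypes, 20 to 455 (WT) and 33 to 1735 (WKO) with confinement, and 169 to 1804 and 288 to 2220 in the averaged genotype and confinement comparisons, and were 0 for the interaction throughout. Unless stated, the cause was not tested. Groups of 2 and 3 libraries limit the precision, most for Syne2, which had as few as 111 reads.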
